A study of Mus musculus with 6 samples.

Results

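The Hedgehog pathway genes described here are 9 listed genes, Shh, Ihh, Ptch1, Hhip, Smo, Sufu, Gli1, Gli2 and Gli3, out of 53801 genes in the count files. They were matched by symbol to the Ensembl gene identifiers of the files through GENCODE M21 on GRCm38, and each symbol matched 1 identifier. The RNA came from ciCPCs, progenitors of the cardiovascular lineage that small molecules induce from mouse fibroblasts, at passage 20 (3 libraries) and at passage 3 (3 libraries). All cells were wild type, from mice whose mixed background combines the strains C57BL/6 and 129J/SvE, and had been expanded from picked colonies in a basal medium with BMP4, Activin A, CHIR99021 (an inhibitor of GSK3 that activates Wnt signalling) and SU5402 (an inhibitor of FGF receptors). No Hedgehog protein or Smoothened agonist is among these named additions, and what the basal medium itself contains is not stated in these sources. The labels do not say that the libraries of a passage came from separate cultures or colonies, so p-values reflect only how far these libraries differ among themselves, possibly for technical reasons, and passage cannot be told apart from culture or library batch.

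Hedgehog signalling begins with secreted, lipid-modified ligands, of which Sonic (Shh), Indian (Ihh) and Desert (Dhh) are the mouse members. Without ligand, the receptor Patched1 holds the membrane protein Smoothened inactive, Sufu retains the Gli transcription factors, and Gli3 in particular is processed to a repressor. Ligand binding releases Smoothened into the primary cilium and lets Gli2 and Gli3 act as activators. Gli1, Ptch1 and Hhip are themselves transcribed in response, so they serve as readouts of the pathway, and the last 2 limit it by feedback. In the embryo, the pathway acts in second heart field progenitors, limb buds and cartilage.

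Of the 9 genes, 7 had enough counts to be tested, and Shh and Ihh did not. Ptch1 rose at passage 20, and Smo, Sufu, Gli1, Gli2 and Gli3 fell, while Hhip did not pass the test. Thus 6 of the 7 had an adjusted p under 0.05 in the quasi-likelihood test of edgeR, adjusted by Benjamini-Hochberg over all genes, where 74.3% of the 15143 genes tested passed. In the single directions, 1 of 7 rose against 37.0% of all genes, and 5 of 7 fell against 37.3%. The median log2 fold change of the 7 was -0.59, and that of all genes tested was -0.01. With library sizes only, a scaling without composition factors, the median was -0.91 for the members and -0.34 for all genes, of which 3528 then rose and 8273 fell. For 6 of the 7 members (1 higher, 5 lower) the libraries of the passages did not overlap, as for 77.5% of all genes (38.3% higher and 39.3% lower at passage 20).

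Promoter windows are shown for the member that rose and for a pair of members that fell, the Gli2 and Sufu genes. RefSeq promoter windows on GRCm38.p6, each 300 bases around an annotated start site, were matched for 7 members (Ihh, Ptch1, Hhip, Smo, Sufu, Gli2 and Gli3). Capitals mark the GC box, searched as GGGCGG and as its reverse complement CCGCCC, and each sequence reads 5′ to 3′ on the strand of its gene.
Ptch1, chr13:63565686-63565985, minus strand: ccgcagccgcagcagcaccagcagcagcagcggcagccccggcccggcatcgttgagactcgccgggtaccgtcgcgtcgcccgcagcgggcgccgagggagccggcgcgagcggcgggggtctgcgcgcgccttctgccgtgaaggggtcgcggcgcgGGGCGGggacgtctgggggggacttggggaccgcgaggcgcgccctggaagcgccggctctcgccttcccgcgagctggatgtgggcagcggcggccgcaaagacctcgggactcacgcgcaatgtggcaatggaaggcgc
Gli2, chr1:119053570-119053869, minus strand: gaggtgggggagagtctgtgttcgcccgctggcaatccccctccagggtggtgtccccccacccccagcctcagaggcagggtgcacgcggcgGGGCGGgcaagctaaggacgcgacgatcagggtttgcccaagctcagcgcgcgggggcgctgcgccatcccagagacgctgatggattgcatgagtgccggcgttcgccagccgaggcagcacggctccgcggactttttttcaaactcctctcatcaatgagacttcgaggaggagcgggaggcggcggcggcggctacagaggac
Sufu, chr19:46396646-46396945, plus strand: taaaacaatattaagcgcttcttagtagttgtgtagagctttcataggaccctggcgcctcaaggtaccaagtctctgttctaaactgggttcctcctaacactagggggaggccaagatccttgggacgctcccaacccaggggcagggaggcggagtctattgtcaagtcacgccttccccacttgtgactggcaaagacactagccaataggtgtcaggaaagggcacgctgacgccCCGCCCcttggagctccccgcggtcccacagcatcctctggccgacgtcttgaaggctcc
The GC box was in 6 of the 7 windows (not in that of Smo), and in 35.7% of 32851 promoter windows of the same table. The consensus GLI binding site, searched as GACCACCCA and TGGGTGGTC, was in 0 of the 7 and in 0.253% of all windows. GC content was 76.3% in the Ptch1 window, 67.3% in that of Gli2 and 56.3% in that of Sufu. The window of Ptch1 lies inside the gene as GENCODE annotates it, since that gene has a start further upstream.

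The ligand genes were at or near 0 counts at both passages. Shh (ENSMUSG00000002633, chromosome 5, 28456815 to 28467256, minus strand) had 0 counts in all 6 libraries. With 11387738 to 13285419 counts in genes per library at passage 20 and 13995799 to 17721788 at passage 3, 0 counts allow up to 0.226 to 0.263 CPM (a gene's share of the library's counts, scaled to a common total) at passage 20 and up to 0.169 to 0.214 CPM at passage 3. These limits take 3 counts per library and cover counting error only. In a single library, 0 counts do not exclude Shh expression below its limit.

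Ihh (ENSMUSG00000006538, chromosome 1, 74945315 to 74951672, minus strand), known for its role in cartilage growth, had 0, 1 and 2 counts in the passage 20 libraries and 3, 3 and 4 counts in the passage 3 libraries. The pooled ratio, 3 counts at passage 20 over 10 at passage 3, was 0.481 after scaling, with an exact 95% counting interval of 0.085 to 1.87 that includes 1. Dhh, the third ligand gene and no listed member, had 3, 3 and 2 counts at passage 20 and 0, 2 and 3 at passage 3. Its exons share 546 bases with Rhebl1 on the same strand, a gene with 173 counts, so even these few reads are uncertain. No ligand gene therefore reached 5 counts in any library.

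From here on, levels are CPM scaled by TMM factors, which correct library totals for differences in composition, and values of 3 libraries are given in the order of replicates 1, 2 and 3. Means carry the SD with n = 3 per passage. In bulk RNA, fewer cells that express a gene and less RNA per cell cannot be told apart. Replicate 3 of passage 20 stood apart from the other libraries of its passage. In a chi-square comparison of gene counts, its pairs with replicates 1 and 2 gave 9.66 and 7.99 per degree of freedom, whereas the pair of replicates 1 and 2 gave 1.94 and the passage 3 pairs gave 1.68 to 2.46. At passage 20 this library held the highest level of 6 of the 7 tested members (all but Gli1), and of 39.6% of all genes tested. The tested members are therefore also given without it. Without it the log2 ratio of Ihh was -1.96, in place of -1.06, on 1 count at passage 20.

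Among the receptors, Ptch1 (ENSMUSG00000021466, chromosome 13, 63508328 to 63573598, minus strand), which binds the ligand and restrains Smoothened, was at 74.9, 77.0 and 89.5 CPM at passage 20 and at 44.4, 48.1 and 49.5 CPM at passage 3. All passage 20 libraries lay above all passage 3 libraries. The mean was 80.5 ± 7.88 CPM at passage 20 and 47.3 ± 2.64 CPM at passage 3, 1.70-fold higher (log2 0.77, SE 0.080, edgeR adjusted p = 5.98e-06). Without replicate 3 of passage 20 the log2 change was 0.66. With library sizes only it was 0.44 and still passed (edgeR adjusted p = 0.000885).

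Hhip (ENSMUSG00000064325, chromosome 8, 79965851 to 80058006, minus strand) encodes a membrane protein that binds and sequesters ligand. It was at 3.85, 4.47 and 6.24 CPM at passage 20 and at 4.49, 4.67 and 3.48 CPM at passage 3, and the groups overlapped. The log2 fold change was 0.23 with a 95% interval of -0.22 to 0.68 (edgeR adjusted p = 0.325); the interval covers both directions. Its sign turned to -0.02 without replicate 3 of passage 20 and to -0.10 with library sizes only.

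Smo (ENSMUSG00000001761, chromosome 6, 29735503 to 29761365, plus strand), the signal transducer that Patched1 restrains, was at 164, 159 and 175 CPM at passage 20 and at 189, 192 and 199 CPM at passage 3. The groups did not overlap, but the change was the smallest among the members that passed, 1.17-fold lower (log2 -0.22, SE 0.054, edgeR adjusted p = 0.00305). It was -0.28 without replicate 3 of passage 20 and -0.55 with library sizes only. Sufu (ENSMUSG00000025231, chromosome 19, 46396896 to 46488804, plus strand), the cytoplasmic inhibitor of the Gli factors, was at 50.6, 58.9 and 67.7 CPM at passage 20 and at 122, 118 and 119 CPM at passage 3. The highest passage 20 library stood far below the lowest passage 3 library, and the fall was 2.02-fold (log2 -1.01, SE 0.089, edgeR adjusted p = 1.96e-06). Without replicate 3 of passage 20 the log2 change of Sufu was -1.14, and with library sizes only it was -1.34.

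The 3 Gli transcription factor genes all fell. Gli1 (ENSMUSG00000025407, chromosome 10, 127329882 to 127341974, minus strand), the activator that is induced by the pathway, was at 4.35, 5.06 and 3.28 CPM at passage 20 and at 10.3, 9.28 and 7.97 CPM at passage 3. It had the largest fall of the members with all libraries in the fit, 2.18-fold (log2 -1.13, SE 0.175, edgeR adjusted p = 0.000137), on 135 counts in all at passage 20 and 472 at passage 3. The groups did not overlap, and the log2 change was -0.97 without replicate 3 of passage 20, where Gli1 was lowest, a smaller fall than those of Sufu and Gli2 without that library. Gli1 shares 62 exon bases with Arhgap9 on the opposite strand, which had 22 counts in all against 607 for Gli1.

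Gli2 (ENSMUSG00000048402, chromosome 1, 118834132 to 119053619, minus strand), the main activator at the first step of the response, was at 55.2, 62.4 and 87.4 CPM at passage 20 and at 127, 125 and 132 CPM at passage 3. This was 1.87-fold lower with no overlap (log2 -0.90, SE 0.149, edgeR adjusted p = 0.000816). Replicate 3 of passage 20 lay well above the other 2 libraries of its passage, and without it the log2 change of Gli2 was -1.14. Gli3 (ENSMUSG00000021318, chromosome 13, 15463235 to 15730026, plus strand), the main repressor, was at 96.8, 108 and 125 CPM at passage 20 and at 163, 166 and 166 CPM at passage 3. It fell, too (log2 -0.59, SE 0.079, edgeR adjusted p = 5.57e-05), again with no overlap, with a log2 change of -0.70 without replicate 3 of passage 20. With library sizes only the log2 change was -0.91 for Gli3, -1.23 for Gli2 and -1.46 for Gli1. RNA levels do not show how much Gli2 or Gli3 protein was in activator or repressor form.

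**Figure D1:**
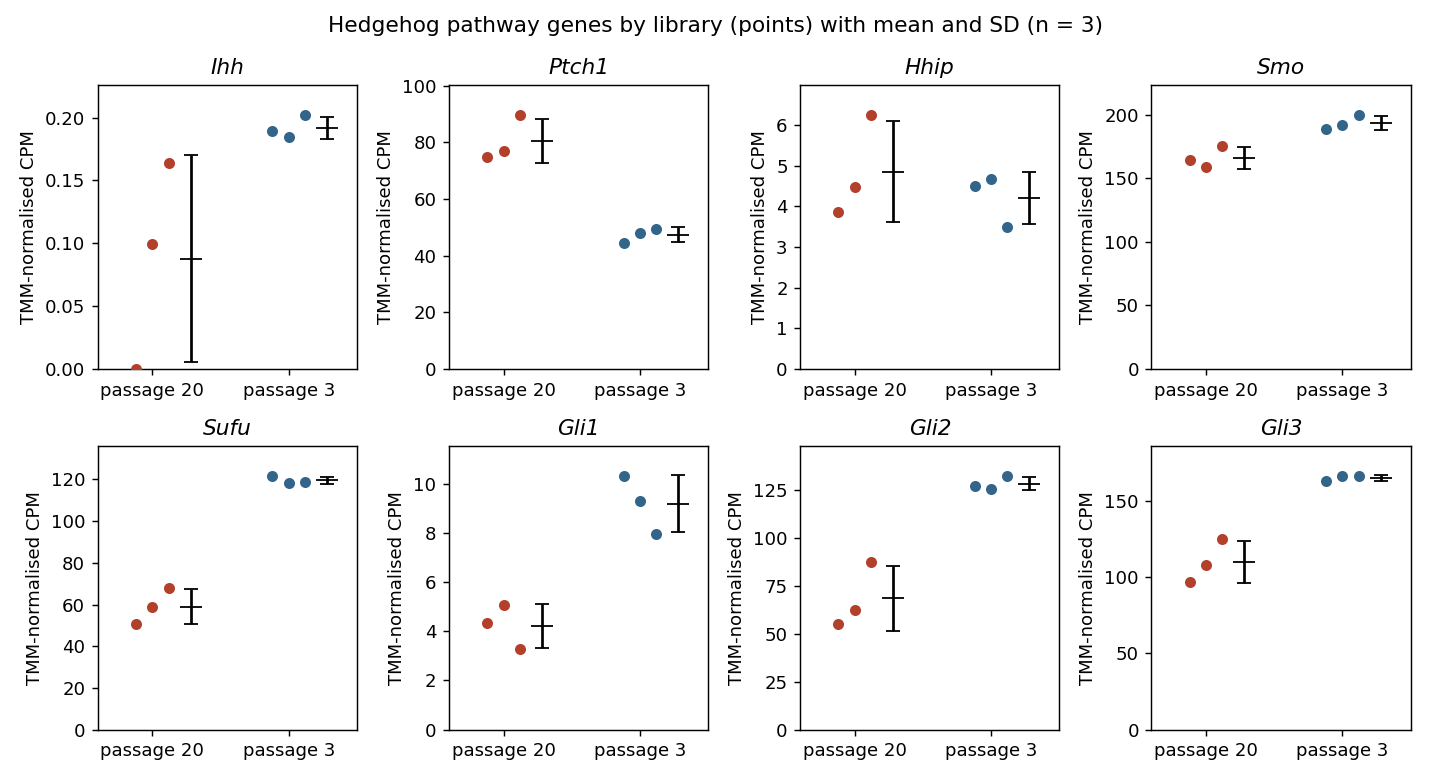
TMM-normalised CPM of 8 Hedgehog pathway genes in each library (points) at passage 20 and passage 3, with mean and SD beside them (n = 3) and every axis starting at 0. Shh is left out because it had 0 counts in all libraries. The points of Ptch1 are higher at passage 20, those of Smo, Sufu, Gli1, Gli2 and Gli3 are lower, and those of Hhip overlap; Ihh rests on 3 counts at passage 20 and 10 at passage 3.

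Divided by the merged exon length of each gene, so that genes can be compared with each other, the levels ran over a wide range. At passage 20 Smo was highest at 29.5 ± 1.51 CPM per kb, followed by Gli3 at 11.4 ± 1.46, Gli2 at 9.95 ± 2.46, Sufu at 7.68 ± 1.11, Ptch1 at 5.67 ± 0.556, Gli1 at 0.847 ± 0.179 and Hhip at 0.535 ± 0.137. At passage 3 Smo was at 34.4 ± 0.953 CPM per kb, Gli2 at 18.7 ± 0.514, Gli3 at 17.2 ± 0.196, Sufu at 15.5 ± 0.229, Ptch1 at 3.34 ± 0.186, Gli1 at 1.84 ± 0.234 and Hhip at 0.464 ± 0.0707. At passage 20 the libraries of Gli3 and Gli2 overlapped, as did those of Gli2 and Sufu and those of Gli1 and Hhip, whereas no neighbours in the order overlapped at passage 3. This order depends on the length chosen. Per kb of the longest transcript, Sufu was second at passage 3 at 26.4 ± 0.390 CPM per kb, followed by Gli3 at 20.2 ± 0.230 and Gli2 at 19.3 ± 0.532. Per kb of coding sequence, Sufu (82.2 ± 1.21) and Smo (81.4 ± 2.25) overlapped at the top at passage 3, and Hhip stood above Gli1 at passage 20. Under all 3 lengths Smo was highest at passage 20, and the Gli1 and Hhip levels lay below those of the other 5 tested members at both passages.

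Within each library, the make-up of the Gli transcripts per length was compared by exact permutation tests (two-sided; with 3 libraries against 3 the smallest p is 0.1). Gli3 made up 51.7 ± 2.10% of the summed Gli level at passage 20 and 45.6 ± 0.570% at passage 3 (exact permutation p = 0.1, the smallest possible). Gli2 made up 44.4 ± 3.35% at passage 20 and 49.5 ± 0.859% at passage 3 (exact permutation p = 0.1, the smallest possible). The Gli1 share was 3.94 ± 1.26% at passage 20 and 4.88 ± 0.661% at passage 3, a difference within the spread of the libraries (exact permutation p = 0.4). That difference of -0.944 percentage points was -0.22 without replicate 3 of passage 20. With the longest transcript or the coding length in place of merged exons, the Gli3 share was higher at passage 20 by 6.09 or 5.96 percentage points, against 6.05 with merged exons. Which of Gli2 and Gli3 had the larger share at passage 3 depended on the length, since Gli3 minus Gli2 was -3.87 percentage points with merged exons, 2.1 with the longest transcript and 10.8 with the coding length. Shares and ratios made up 9 such exact permutation tests, and the Benjamini-Hochberg adjusted value for p = 0.1 was 0.129, so none could pass 0.05.

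**Figure D2:**
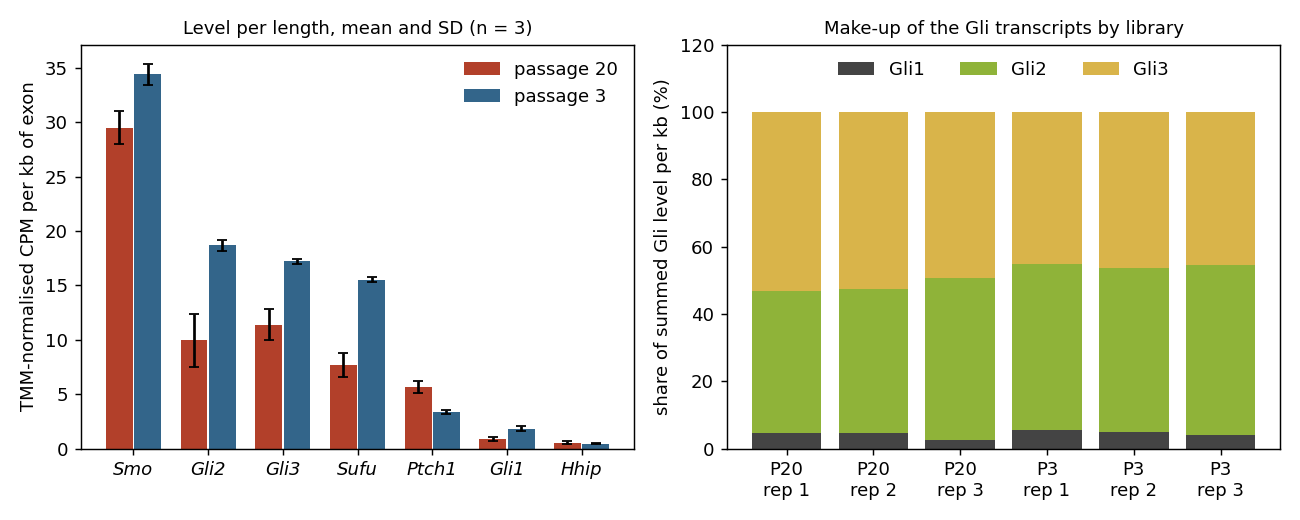
Left, TMM-normalised CPM per kb of merged exon of 7 Hedgehog pathway genes at passage 20 and passage 3 (bars, mean; error bars, SD, n = 3). Right, the share of Gli1, Gli2 and Gli3 in their summed level per kb in each library. With this length Smo is highest at both passages, and the Gli3 share is 49.3 to 53.1% in the passage 20 libraries and 45.2 to 46.3% in the passage 3 libraries. With coding length or the longest transcript the Gli3 share is above the Gli2 share at both passages.

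Both Ptch1 and Gli1 are used as readouts of the pathway, and they moved in opposite directions. The log2 ratio of Ptch1 to Gli1 in CPM, which does not depend on library scaling, was 4.11, 3.93 and 4.77 at passage 20 and 2.11, 2.37 and 2.63 at passage 3. The groups did not overlap, and the mean difference was 1.90 (exact permutation p = 0.1, the smallest possible). The log2 ratio of the receptor Ptch1 to Smo was -1.05 ± 0.0815 at passage 20 and -2.03 ± 0.0496 at passage 3, and that of Sufu to Smo was -1.50 ± 0.174 at passage 20 and -0.69 ± 0.0568 at passage 3 (exact permutation p = 0.1 for each, the smallest possible). The log2 ratio of Gli2 to Gli3 was -0.70 ± 0.166 at passage 20 and -0.36 ± 0.0390 at passage 3 (exact permutation p = 0.1, the smallest possible). Sufu and Gli2 had a log2 ratio of -0.19 ± 0.153 at passage 20 and -0.10 ± 0.0489 at passage 3, with overlapping libraries (exact permutation p = 0.5).

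**Figure D3:**
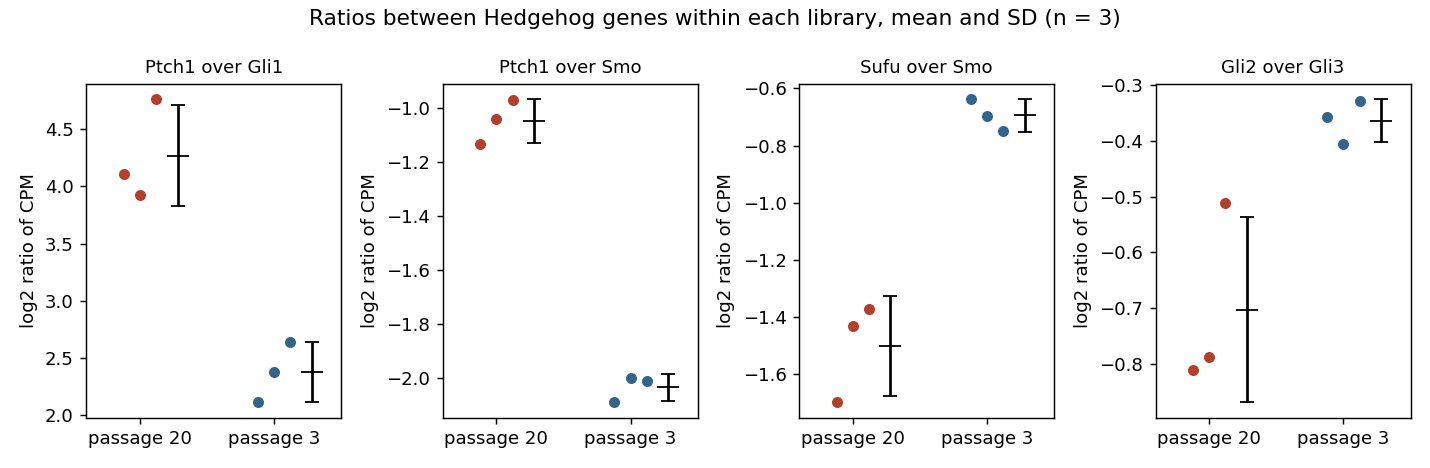
Log2 ratios of CPM between pairs of Hedgehog pathway genes in each library (points) at passage 20 and passage 3, with mean and SD (n = 3). The axes do not start at 0. The libraries of the passages do not overlap in any of the 4 ratios, with passage 20 above passage 3 for Ptch1 over Gli1 and Ptch1 over Smo, and below it for Sufu over Smo and Gli2 over Gli3.

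Genes that make, release and carry the ligand could be tested in part. The list had 10 such genes, and the test covered 6, with 1 higher, 4 lower and 1 that did not pass (83.3% called, against 74.3% of all genes; median log2 -0.83, against -0.01 for all genes). Shh, Ihh, Dhh and Disp2 had too few counts. The 3 Scube genes, which encode secreted proteins that help release lipid-modified ligand, all fell. Scube3 was at 70.6 ± 1.59 CPM at passage 20 and 219 ± 8.91 CPM at passage 3, 3.10-fold lower (edgeR adjusted p = 1.03e-09). Scube2 was at 7.05 ± 0.984 CPM at passage 20 and 23.2 ± 2.93 CPM at passage 3, and Scube1 was at 52.4 ± 2.35 CPM at passage 20 and 97.0 ± 3.91 CPM at passage 3. Disp1, the transporter that exports the ligand, also fell, and was at 38.1 ± 5.59 CPM at passage 20 and 64.8 ± 4.08 CPM at passage 3. The membrane protease gene Adam17 rose 1.51-fold, and part of it overlaps Iah1 on the opposite strand. Hhat, the enzyme that attaches palmitate to the ligand, did not pass (edgeR adjusted p = 0.0574).

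Among receptors and co-receptors more genes rose than fell. The list held 11 genes with Ptch1 and Hhip among them, and of the 10 tested 7 were higher, 1 was lower and 2 did not pass the test, Hhip among them, with a median log2 change of 0.57 (70.0% higher, against 37.0% of all genes). With TMM factors, the 1 lower gene was the co-receptor gene Gas1, and the other co-receptor genes tested all rose. Gas1, which promotes signalling at the cell surface, fell to 42.4 ± 11.5 CPM at passage 20, against 149.6 ± 2.55 CPM at passage 3, 3.50-fold lower (edgeR adjusted p = 1.95e-05). Its libraries were at 36.2, 35.4 and 55.7 CPM at passage 20 and at 147, 149 and 152 CPM at passage 3. Boc, a second co-receptor, rose 1.81-fold to 150.4 ± 11.7 CPM at passage 20, against 82.9 ± 4.20 CPM at passage 3 (edgeR adjusted p = 6.06e-07). Cdon, its relative, rose 1.28-fold, but with library sizes only its log2 change was 0.02 and did not pass (edgeR adjusted p = 0.661). Gpc3, a glypican that competes with Patched1 for ligand, rose 2.87-fold to 1218 ± 149 CPM at passage 20, against 424 ± 7.54 CPM at passage 3. Lrp2, an endocytic receptor that also binds Shh, rose 3.32-fold to 58.9 ± 3.20 CPM at passage 20, against 17.7 ± 1.26 CPM at passage 3.

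Genes that carry the signal inside the cell moved both ways. The list held 27 genes, the members Smo, Sufu and the 3 Gli genes among them, and all were tested. In it 9 rose, 12 fell and 6 did not pass the test, with a median log2 change of -0.04. These are 33.3% higher and 44.4% lower, near the 37.0% and 37.3% of all genes. With library sizes only, 3 rose and 17 fell (11.1% and 63.0%, against 23.3% and 54.6% of all genes). The largest falls were those of Gpr161, a ciliary receptor that restrains the pathway, which was at 23.1 ± 2.44 CPM at passage 20 and 56.9 ± 1.02 CPM at passage 3 (2.46-fold lower, log2 -1.30), and of Efcab7 and Iqce. The last 2 encode proteins of the complex that holds Smoothened's partners Evc and Evc2 at the cilium base, and fell 2.39-fold and 2.29-fold. Ulk3, a kinase that acts on Gli proteins, rose 2.99-fold (edgeR adjusted p = 1.51e-07). Csnk1a1, a casein kinase, rose 1.83-fold, and the beta-arrestin gene Arrb1 rose by a log2 of 0.59. Kif7, the ciliary kinesin that organises Gli proteins, did not pass.

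Genes known as Hedgehog targets in some tissue went both ways, in shares near those of all genes. The list held 18 genes, Gli1, Ptch1 and Hhip among them, and of the 15 tested 6 were higher, 5 were lower and 4 did not pass the test (73.3% called, against 74.3% of all genes). These are 40.0% higher and 33.3% lower, against 37.0% and 37.3% of all genes. The median log2 change of 0.23 turned to -0.10 with library sizes only (4 higher, 7 lower) and to -0.02 without replicate 3 of passage 20 (6 higher, 6 lower). With library sizes only, these were 26.7% higher and 46.7% lower, against 23.3% and 54.6% of all genes. Foxf2, a forkhead factor of mesenchyme, was at 1.58, 1.59 and 2.54 CPM at passage 20 and at 31.2, 33.8 and 33.6 CPM at passage 3, a 16.9-fold fall (edgeR adjusted p = 1.64e-09). Its relative Foxf1, in contrast, rose 1.62-fold to 4.35 ± 0.461 CPM at passage 20, against 2.70 ± 0.240 CPM at passage 3 (edgeR adjusted p = 0.00358), though not with library sizes only (edgeR adjusted p = 0.0771). Ccnd1, cyclin D1, fell 3.57-fold to 6.55 ± 2.05 CPM at passage 20, against 23.8 ± 0.643 CPM at passage 3, and shares 1100 exon bases with LTO1 on the opposite strand, which had about as many counts. Pax9 fell 3.43-fold. Jag2, a Notch ligand gene, rose 8.37-fold to 31.3 ± 3.76 CPM at passage 20, against 3.69 ± 0.634 CPM at passage 3, and Snai1 rose 2.49-fold. Many of these genes also answer to other pathways.

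**Figure D4:**
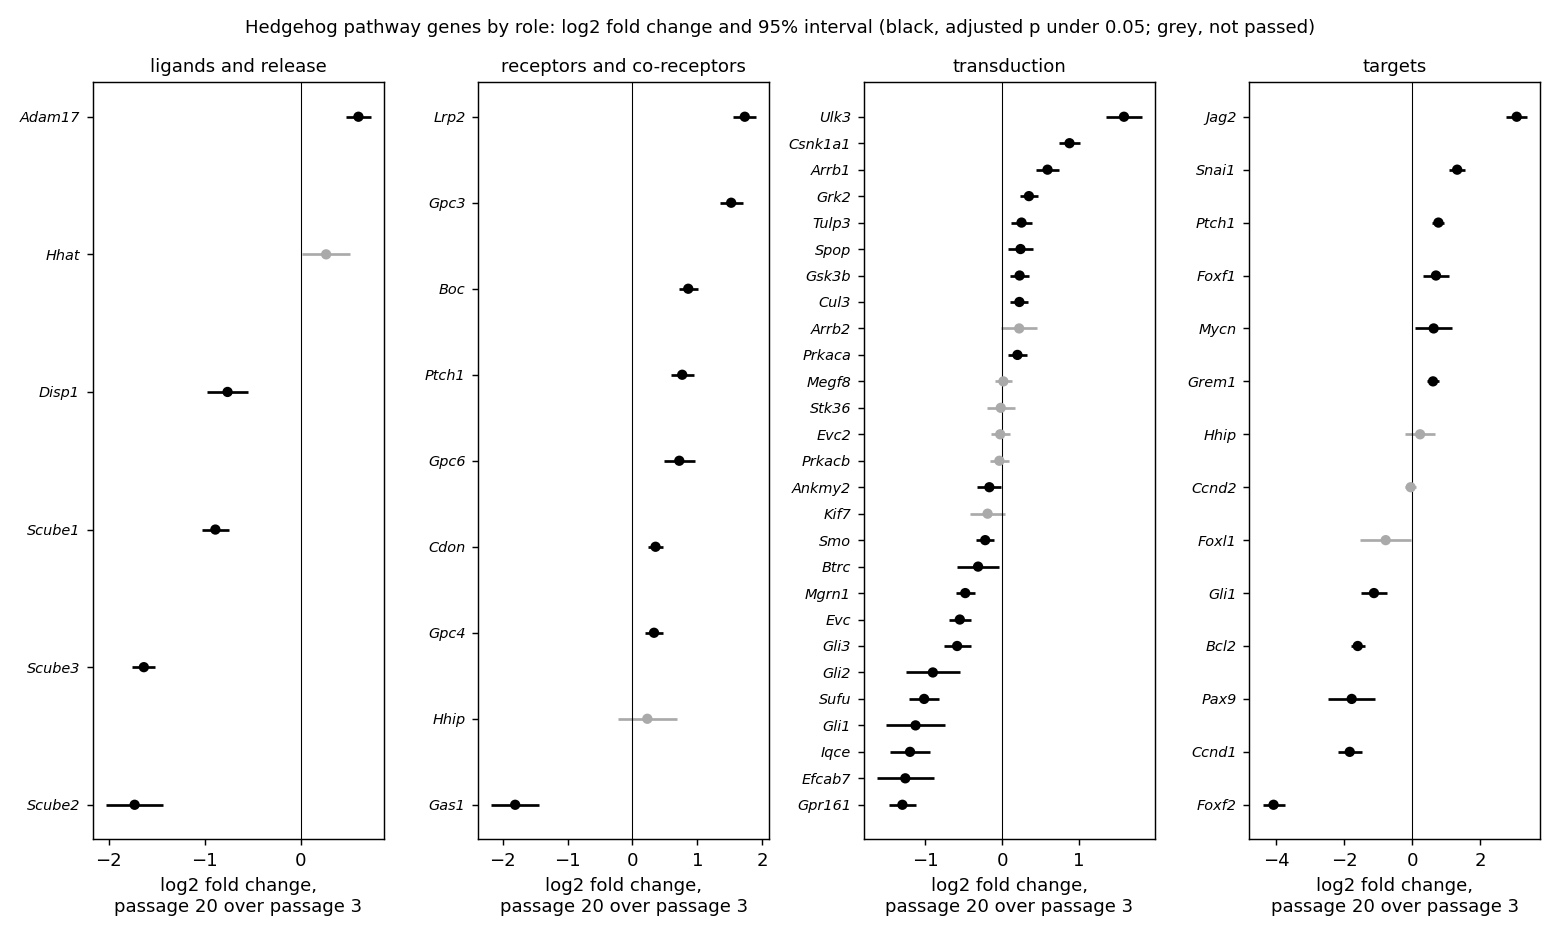
Log2 fold changes of passage 20 over passage 3 with 95% intervals (edgeR) for tested genes of the Hedgehog pathway, in a panel per role; black genes passed an adjusted p of 0.05 and grey genes did not. The Scube genes, Disp1 and Gas1 lie left of 0, the other receptors and co-receptors that passed lie right of it, and transduction and target genes lie on both sides. Panels have their own scales.

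The primary cilium, the organelle that vertebrate Hedgehog signalling needs, was also covered. Among 29 genes of intraflagellar transport and the cilium base, 8 were higher, 11 were lower and 10 did not pass the test (65.5% called, against 74.3% of all genes). These are 27.6% higher and 37.9% lower, against 37.0% and 37.3% of all genes, and the median log2 change was -0.14. With library sizes only, 2 rose and 18 fell (6.9% and 62.1%, against 23.3% and 54.6% of all genes). Arl13b, a small GTPase of the ciliary membrane, rose 2.47-fold (edgeR adjusted p = 1.78e-08). Ift57, a subunit of the transport trains, rose 1.56-fold. Tctn1, a transition zone gene, had a log2 change of 0.50, but of 0.17 with library sizes only, which did not pass (edgeR adjusted p = 0.147). Inpp5e, the ciliary phosphatase that Arl13b helps to place, was at 21.7 ± 2.32 CPM at passage 20 and 42.1 ± 3.56 CPM at passage 3, and overlaps the more abundant Pmpca on the opposite strand. Rpgrip1l, a protein of the transition zone, fell 2.08-fold and Ofd1 2.01-fold. Ofd1 shares exon bases with Trappc2.

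The cells carried counts for all 8 checked markers of cardiac progenitors, whose summed level was 641 to 709 CPM at passage 20 and 761 to 785 CPM at passage 3. All 8 passed the test, 4 higher and 4 lower: Isl1 was at 7.44 ± 0.535 CPM at passage 20 and 63.1 ± 5.71 CPM at passage 3 (8.44-fold lower), and Nkx2-5 at 5.23 ± 0.372 CPM at passage 20 and 1.15 ± 0.211 CPM at passage 3 (4.57-fold higher). Over all genes tested, 74.3% passed, 37.0% higher and 37.3% lower. All 5 epithelial markers rose, and their sum was 280.4 to 316 CPM at passage 20 and 89.9 to 94.1 CPM at passage 3. The sum of 5 neural markers was 89.7 to 113 CPM at passage 20 and 39.0 to 42.8 CPM at passage 3, most of it Tubb3 (91.5 ± 10.3 CPM at passage 20, 33.3 ± 2.19 CPM at passage 3). Among the other neural markers Sox2 rose 1.40-fold, Pax6 fell 2.55-fold, Elavl3 did not pass and Sox1 had too few counts. The immune markers Ptprc, Itgam and Cd3e had 0 counts in all libraries, whereas the macrophage marker Cd68 was at 4.90 ± 1.18 CPM at passage 20 and 4.73 ± 0.338 CPM at passage 3 and did not pass.

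The 7 cardiomyocyte markers summed to 7.44 to 7.72 CPM at passage 20 and 5.56 to 6.52 CPM at passage 3, with 2 of 4 tested higher and 1 lower. Beside this and the following counts, 74.3% of all genes tested passed, 37.0% higher and 37.3% lower. The 5 endothelial markers summed to 9.33 to 10.1 CPM at passage 20 and 11.3 to 13.3 CPM at passage 3, with 1 of 3 tested higher and 1 lower. The sums of smooth muscle markers overlapped (864 to 899 CPM at passage 20, 846 to 909.8 CPM at passage 3) and were mostly Acta2, while 1 marker rose and 2 fell, Myh11 by 4.20-fold. The sums of chondrocyte markers also overlapped (121 to 133 CPM at passage 20, 116 to 131 CPM at passage 3), but their 4 tested members all passed, Acan and Col9a1 higher (14.5-fold and 7.85-fold) and Sox9 and Col2a1 lower (1.66-fold and 1.69-fold). The part of these cell type differences in the Hedgehog changes was not tested.

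Genes with the most similar pattern were searched among 13074 protein-coding genes with an established symbol, by the root mean square distance of log2 CPM over the 6 libraries after centring each gene on its mean. Nearest to Ptch1, the member with the largest rise, were Polh (distance 0.026), Nr2f2 (0.0289) and Samd4 (0.0332). Nearest to Gli1, with the largest fall when all libraries were used, were Hap1 (0.0839), Ogn (0.0921) and Phf20l1 (0.11).

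**Figure D5:**
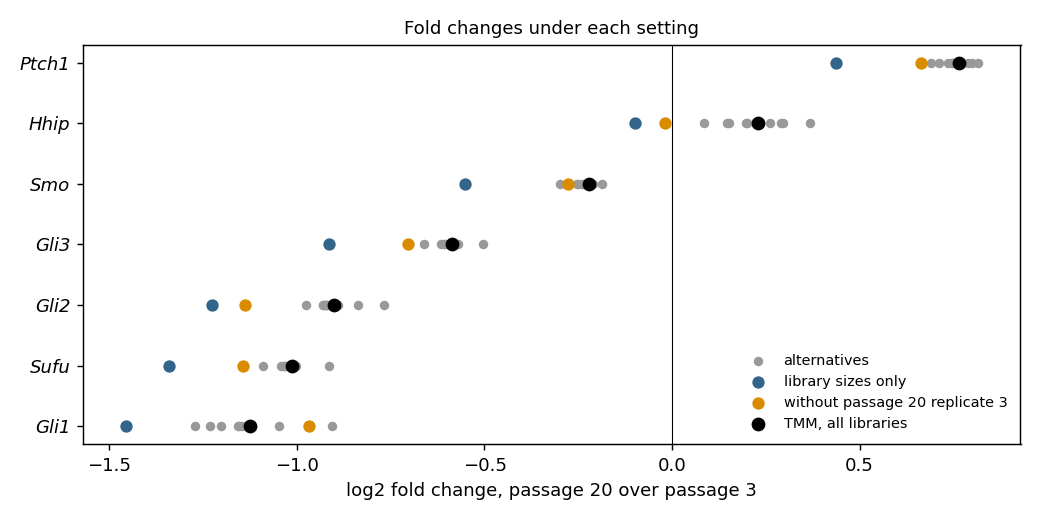
Log2 fold changes of passage 20 over passage 3 for the 7 tested Hedgehog pathway genes under TMM scaling with all libraries (black), library sizes only (blue), without replicate 3 of passage 20 (orange) and the other 13 settings (grey). Ptch1 stays right of 0 and Smo, Sufu and the 3 Gli genes stay left of it, while Hhip crosses 0 in the blue and orange settings.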

How the data were processed

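RNA-seq counts of 3 ciCPC libraries at passage 20 and 3 at passage 3 were used. The authors deposited gene counts in whole numbers for every library, and they also deposited values on a log2 scale whose transformation is not stated. HISAT2 2.0.5 and, without versions, HTSeq, SAMtools and DESeq2 are listed for GRCm38 per the submitters' processing notes. Which step each served, the gene annotation and the strandedness of the counting are not stated in these sources. Of 53801 genes, 53706 matched GENCODE M21, and lengths are merged exons from it. Genes passing filterByExpr (15143) were scaled with TMM factors and tested with edgeR 4.0.16 in R 4.3.3 (robust quasi-likelihood test, Benjamini-Hochberg adjustment, threshold 0.05). Tables of the whole series that repeat these values were not used. SEs were derived from the F statistic. The distance between patterns used log2 CPM with a prior count of 2. Total counts were 11387738 to 17721788 per library.

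Passage, as the labels give it, set the groups. The members and gene lists were chosen with earlier results of these data known. All members are named; of each other list, the 3 genes that changed most in each direction and passed the test, given a mean of 1 CPM or more in the passage where they were higher. Cdon, Disp1, Hhat, Foxf1, Dhh and Lmbr1 were given values after these were seen. Alternatives were DESeq2 1.42.0 and limma-voom (limma 3.58.1) as other tools, scaling by RLE, by upper quartile or by library sizes only, all genes without a filter or those with 1 CPM in 3 libraries, a replicate block, limma on the deposited log2 values, and each library left out. For list counts, leaving out replicate 3 of passage 20 was chosen after seeing the data, as were other lengths for the order of levels and for the Gli2 and Gli3 shares. Some listed genes count in the list totals and are not reported here by name.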

Additional observations from a re-analysis of the deposited data

How the results depend on the processing

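Of 155 alternative values for the counts of calls, the 8 members with counts and the Gli1 share, 153 kept the direction and the side of the threshold (or, for counts, stayed within 1.5 times; for Ihh within its counting interval, and for the Gli1 share within 1 SD). The exceptions were both for Hhip, whose log2 fold change was -0.10 with library sizes only and -0.019 without replicate 3 of passage 20, within a range of -0.019 to 0.37 with a library left out. Hhip passed under none of the 15 alternatives. In each of these, 1 of the 7 tested members rose and 5 fell. Library sizes only turned the split of all genes from 5604 higher and 5641 lower to 3528 higher and 8273 lower, and that of the transduction list from 9 and 12 to 3 and 17, and that of the cilium list from 8 and 11 to 2 and 18; the other list counts stayed within 1.5 times. The Ihh log2 ratio ranged from -1.96 (without replicate 3 of passage 20) to -0.52 (without replicate 1 of passage 20). The passage difference in the Gli1 share ranged from -1.35 to -0.22 percentage points with a library left out. Gli3 minus Gli2 share at passage 3 was 2.1 with the longest transcript and 10.8 with coding length, against -3.87 with merged exons. Without the low-count filter Ihh could be tested, with a log2 fold change of -1.02, and it did not pass (edgeR adjusted p = 0.425). The passages share replicate numbers, but samples with the same number did not deviate together (correlations of 0.0143, -0.0273 and 0.0454), so the numbers are not taken as pairs. With a replicate block 11103 genes passed instead of 11245, and all 6 calls among the members held. For Shh no alternative gives a value, since it had 0 counts. Depth limits Shh, Ihh and Dhh.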

Other observations

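Regulators that act upstream of Shh in the limb bud, and genes at its limb enhancer, were examined, since Shh itself had 0 counts. Genes that raise Shh and genes that lower it were not separated. The list held 15 genes, and of the 14 tested 5 were higher, 6 were lower and 3 did not pass the test. These are 35.7% higher and 42.9% lower, near the 37.0% and 37.3% of all genes. The posterior Hox genes stood out by size: Hoxd13 was at 1.78, 3.18 and 4.43 CPM at passage 20 and at 101, 93.6 and 96.3 CPM at passage 3, and Hoxa13 at 0.747 ± 0.0782 CPM at passage 20 and 39.1 ± 3.19 CPM at passage 3 (SD, n = 3). Hoxd12 was at 0.214 ± 0.0279 CPM at passage 20 and 27.7 ± 0.668 CPM at passage 3. Fgf8, a limb ridge signal, rose 2.77-fold, the ETS factor gene Etv4 3.47-fold and Gata4 1.70-fold. Lmbr1, the gene that holds the limb enhancer of Shh in an intron, was at 12.1 ± 0.327 CPM at passage 20 and 12.1 ± 0.361 CPM at passage 3 and did not pass (95% interval of the log2 change -0.22 to 0.21). Shh was at 0 counts at both passages, and a link between the Hox levels and Shh was not tested.

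Of 7 partners of Ihh in growing cartilage, 5 were tested, and 1 was higher and 4 were lower (37.0% and 37.3% of all genes were). The receptor gene Pth1r fell to 40.9 ± 6.85 CPM at passage 20, against 105 ± 8.22 CPM at passage 3, Runx2 fell 2.20-fold and Col2a1 1.69-fold, and Sox9 was at 35.6 ± 14.1 CPM at passage 20 and 59.7 ± 5.05 CPM at passage 3 (log2 -0.73, edgeR adjusted p = 0.0341). Acan, the aggrecan gene, rose to 13.8 ± 1.59 CPM at passage 20, against 0.933 ± 0.261 CPM at passage 3. Pthlh and Col10a1 had too few counts to test.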
